A study of Mus musculus with 5 samples.

Results

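A set of 10 genes that move glycerol or make glycerol 3-phosphate were examined in fat cells that had shared their medium with myeloma cells. They were chosen by name for their role in glycerol transport, glycerol phosphorylation, the glycerol 3-phosphate dehydrogenase reactions, and the entry of pyruvate into glyceroneogenesis. A member was represented by the probe set (the group of array probes that reads 1 transcript) carrying its symbol in the platform annotation, and each gene found had 1 such probe set. Of the 10 members, 8 were measured this way among 22206 probe sets, of which 19572 had a single gene symbol and were searched. These were Aqp7, Aqp3, Gpd1, Gpd1l, Gpd2, Pck1, Pcx and Mpc1. No probe set with a single symbol carried the name of Gk or Mpc2 in that annotation, by present or former symbol. Probe sets naming several genes were not searched, and Gk and Mpc2 are not analysed here.

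A fat cell stores fatty acids as triglyceride on a glycerol backbone, and lipolysis frees both again. The glycerol leaves through aquaglyceroporins, water channels that also pass glycerol, while the fatty acids can be esterified again only with fresh glycerol 3-phosphate. White adipocytes have little glycerol kinase, so most of this backbone is made either from glucose, through dihydroxyacetone phosphate, or from pyruvate and other non-sugar precursors by glyceroneogenesis. In that pathway pyruvate enters the mitochondrion through the pyruvate carrier and is carboxylated to oxaloacetate. The carbon leaves again as malate or aspartate, phosphoenolpyruvate carboxykinase converts the oxaloacetate to phosphoenolpyruvate, and a glycerol 3-phosphate dehydrogenase completes the route.

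The cells were 3T3-L1, a mouse fibroblast line that becomes adipocytes in culture. After 4 days of growth all cultures were induced for 4 days with insulin (5 µg/mL), dexamethasone (1 µM) and IBMX (0.5 mM). Insulin was then given without the other agents for 2 days, followed by 1 day in basal medium. The exposed group (3 arrays) then spent 72 h in RPMI-1640 with 10% serum facing human MM.1S myeloma cells across a transwell membrane of 0.4 µm pore size. The control group (2 arrays) spent the same time in that medium without myeloma cells. The comparison asks whether sharing medium with myeloma cells alters mature adipocytes. Factors released by the myeloma cells cannot be told apart here from their use of the medium. Both groups carried the same hormonal induction, which includes a glucocorticoid, and the line is a culture model that lacks the other cells of marrow. The labels do not say that replicates were separate cultures, so the spread between arrays may be technical. Each value is the log2 expression value of 1 array, and array medians ran from 4.80 to 4.88. Levels of different probe sets are not comparable, because probes differ in how strongly they hybridise.

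The labelled cell type was set against 11 measured adipocyte markers. On the log2 scale Fabp4, which binds fatty acids in the cytosol, lay between 12.3 and 12.4 on the 5 arrays, Adipoq, the adiponectin gene, between 11.4 and 11.7, and Pparg, the master regulator of adipogenesis, between 10.95 and 11.05. Retn, the resistin gene, was at 8.82 to 9.22 on exposed and 8.49 to 8.68 on control arrays, and so higher on every exposed array (limma adjusted p 0.93, unadjusted p 0.031). Slc2a4, the insulin-responsive glucose transporter, lay between 5.55 and 5.92, and Lep, the leptin gene, between 2.75 and 3.45, below the array medians; both were named after their values were seen. The 11 adipocyte markers had a mean level of 9.10 to 9.17 on exposed and 9.16 to 9.19 on control arrays. Of the 11, 3 were higher and 8 lower in mean on exposed arrays. Cebpa, named after its value was seen, was lower on every exposed array, at a difference of -0.24. Dlk1, a preadipocyte gene, was at 10.2 to 10.4 on exposed and 10.5 to 10.7 on control arrays. The 9 measured preadipocyte and fibroblast markers had a mean level of 7.75 to 7.84 on exposed and 7.89 to 7.91 on control arrays, and 7 of them were lower in mean on exposed arrays. How far a change in the share of undifferentiated cells entered the values below was not tested, and fewer cells of a type cannot be told apart from less RNA per cell. Hepatocyte markers, included because liver uses the same enzymes for gluconeogenesis, had a mean level of 3.85 to 4.10 on exposed and 3.98 to 4.02 on control arrays. Macrophage markers lay at 3.65 to 3.80 against 3.78 to 3.90, and B and plasma cell markers at 3.57 to 3.83 against 3.54 to 3.77. These means cover genes of unlike level. The macrophage marker Cd14 lay between 6.14 and 7.01, above the array medians. So did the plasma cell marker Sdc1, named after its value was seen, between 7.26 and 7.81.

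The promoters of 3 genes are shown because they belong to the regulated step of glyceroneogenesis (Pck1) and to the pair of glycerol channels, which are adjacent protein-coding genes on chromosome 4 and of which Aqp7 had the widest difference. Each is the 250 bases before the most upstream start site in RefSeq, build GRCm38.p6, 5′ to 3′ on the strand of the gene. Capitals mark matches, on either strand, to 5 motifs, which are ACGTCA (part of the cAMP response element), AGGTCA (the half-site of PPARγ and related nuclear receptors), the CCAAT box, the TATAAA box and the GC box GGGCGG, and no motif overlapped another in these windows. The Pck1 window is chr2:173152823-173153072 on the plus strand, the Aqp7 window chr4:41048137-41048386 and the Aqp3 window chr4:41098184-41098433, both on the minus strand.
Pck1: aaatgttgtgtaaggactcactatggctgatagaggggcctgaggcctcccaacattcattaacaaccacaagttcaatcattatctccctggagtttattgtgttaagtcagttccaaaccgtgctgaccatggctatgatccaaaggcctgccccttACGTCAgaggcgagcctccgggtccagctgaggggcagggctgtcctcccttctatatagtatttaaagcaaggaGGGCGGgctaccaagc
Aqp7: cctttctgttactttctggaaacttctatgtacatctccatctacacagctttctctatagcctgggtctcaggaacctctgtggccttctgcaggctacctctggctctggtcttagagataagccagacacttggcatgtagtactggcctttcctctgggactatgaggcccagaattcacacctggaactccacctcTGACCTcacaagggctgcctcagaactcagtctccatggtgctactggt
Aqp3: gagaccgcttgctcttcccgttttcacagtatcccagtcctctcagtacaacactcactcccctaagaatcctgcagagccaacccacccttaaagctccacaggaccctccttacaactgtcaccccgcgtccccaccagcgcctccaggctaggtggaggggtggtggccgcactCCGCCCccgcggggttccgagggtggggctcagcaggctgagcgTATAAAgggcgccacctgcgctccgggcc

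The Pck1 window held ACGTCA from 91 to 86 bases before the start, letters found in 6.47% of all 32851 windows in the table, and GGGCGG from 16 to 11 bases before it (32.7% of windows). The cAMP response element of this promoter is a textbook example of hormonal control. The Aqp7 window held 1 half-site match, TGACCT on the strand shown, 49 to 44 bases before the start (14% of windows). Aqp7 is a known PPARγ target in adipocytes. The Aqp3 window held TATAAA from 29 to 24 bases before the start (12.4% of windows) and a GC box from 73 to 68 bases before it. Windows were present for 9 of the 10 members, and CCAAT (33.8% of windows) was matched in those of Gpd1l, Mpc1, Mpc2 and Pcx. These matches describe letters and were not tested for binding.

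Of the 8 measured genes, 5 were higher and 3 lower in mean on exposed arrays, and none passed the test. Over all probe sets 49.9% were higher and 50.1% lower. At an adjusted p under 0.05, limma called 0 members, and 0% of probe sets in either direction. At an unadjusted p under 0.05 it called 0 members, against 776 probe sets or 3.49%. In 0 members did the exposed arrays lie all above or all below both control arrays, whereas this held upwards for 8.5% and downwards for 8.84% of all probe sets. The median difference of the 8 genes was 0.029 on the log2 scale and that of all probe sets was -0.0004. The 95% interval lay within a 2-fold difference in both directions for 7 of the 8 genes, as for 92.9% of all probe sets, and Aqp7 was the exception.

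**Figure D1:**
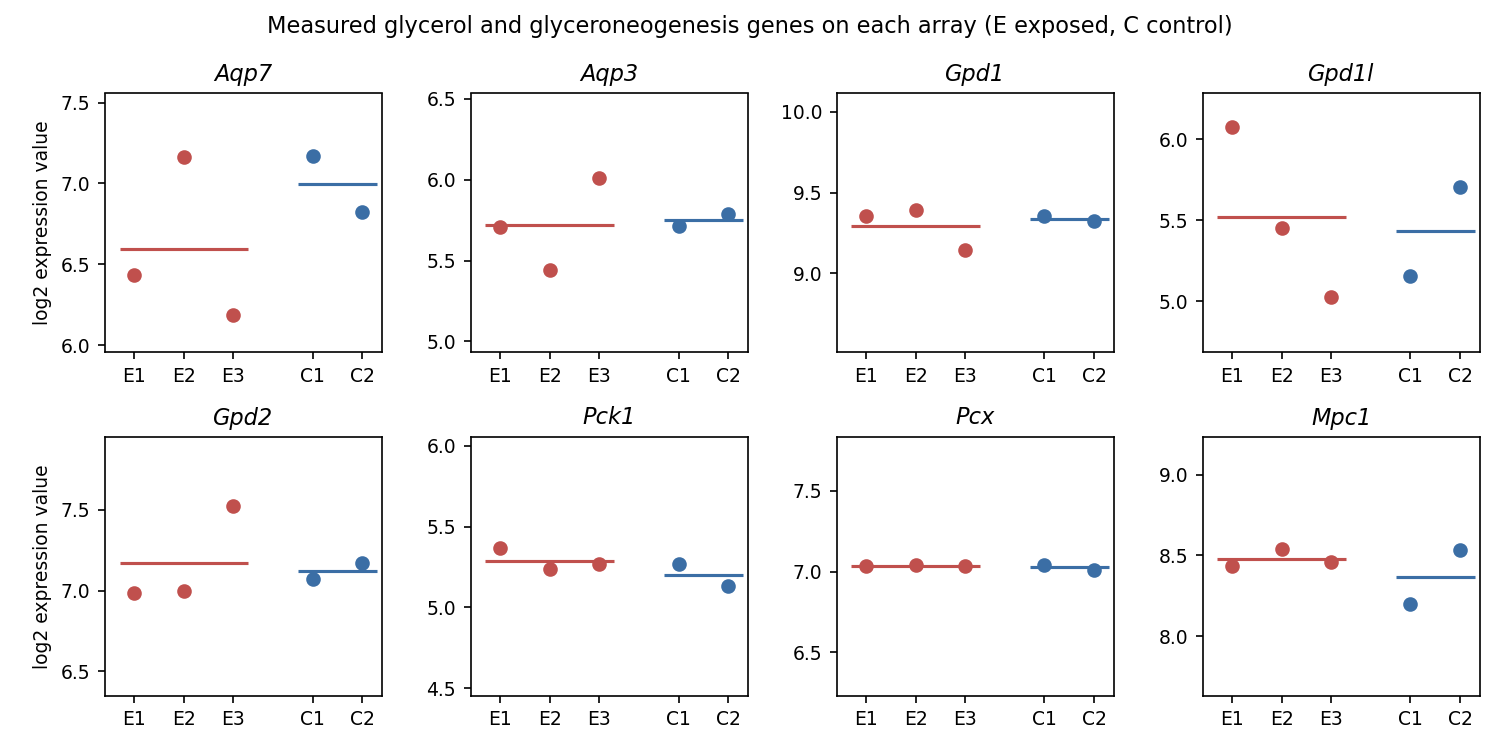
Log2 expression value (vertical axis, each panel spanning the same range around the mean of its gene) of the 8 measured genes on exposed arrays E1 to E3 (red) and control arrays C1 and C2 (blue), with horizontal lines at the group means. Points of both colours overlap in every panel, and Aqp7 and Gpd1l scatter most.

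Aqp7 encodes the main glycerol channel of the adipocyte membrane, through which glycerol from lipolysis leaves the cell. Its values were 6.44, 7.16 and 6.19 on exposed arrays 1 to 3 and 7.17 and 6.82 on control arrays 1 and 2. Exposed arrays 1 and 3 lay below both controls, but exposed array 2 was level with control array 1. The mean was 6.60 ± 0.51 (SD, n = 3) against 7.00 ± 0.25 (SD, n = 2), a difference of -0.40 with an interval of -1.14 to 0.33 (limma adjusted p 0.93). On the linear scale this is a ratio of 0.757, with bounds of 0.455 and 1.26. The difference was -0.69 without exposed array 2 and -0.20 without exposed array 3. Without exposed array 2, the only exposed array inside the control range, the groups no longer overlapped. In that setting the same held for 31.6% of all probe sets.

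Aqp3, a second aquaglyceroporin that is better known from skin and kidney, showed a different order of arrays. It was at 5.71, 5.44 and 6.01 on exposed and 5.71 and 5.79 on control arrays. Exposed array 3, the lowest for Aqp7, was here the highest, and exposed array 2 was the lowest. The means were 5.72 ± 0.28 (SD, n = 3) and 5.75 ± 0.054 (SD, n = 2), a difference of -0.031 (95% interval -0.49 to 0.43, limma adjusted p 0.99).

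Gpd1, the cytosolic enzyme that reduces dihydroxyacetone phosphate to glycerol 3-phosphate, read 9.35, 9.39 and 9.15 on exposed arrays and 9.35 and 9.32 on control arrays. Exposed array 3 lay lowest, and the value of exposed array 1 was exactly that of control array 1. The difference was -0.042 (95% interval -0.37 to 0.29, limma adjusted p 0.97), so a ratio outside 0.773 to 1.22 lay beyond the interval. Gpd1l, a close relative with the same reaction that is also known for its role at the cardiac sodium channel, was the most variable of the 8 genes. Its exposed values were 6.08, 5.45 and 5.03 and its control values 5.15 and 5.71. The exposed arrays thus spanned 1.05 log2 units, and both controls fell inside that span. The difference was 0.089 (95% interval -0.71 to 0.89, limma adjusted p 0.98). It turned to -0.19 without exposed array 1, and likewise without control array 1.

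Gpd2, the mitochondrial glycerol 3-phosphate dehydrogenase, runs the reaction in the opposite direction and passes the electrons to the respiratory chain. It was at 6.99, 7.00 and 7.52 on exposed arrays and at 7.07 and 7.17 on control arrays. Exposed array 3 stood above the other 4 arrays, and exposed arrays 1 and 2 lay below both controls. The mean was 7.17 ± 0.31 (SD, n = 3) against 7.12 ± 0.068 (SD, n = 2), a difference of 0.047 (95% interval -0.44 to 0.53, limma adjusted p 0.98). Without exposed array 3 it was -0.13.

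Pck1 encodes cytosolic phosphoenolpyruvate carboxykinase, the regulated enzyme of glyceroneogenesis, whose transcription rises with cAMP and falls with insulin, and which glucocorticoids raise in liver but lower in fat. Its values were 5.37, 5.24 and 5.27 on exposed arrays and 5.27 and 5.13 on control arrays. All 5 arrays lay within 0.23 log2 units, and exposed array 3 had exactly the value of control array 1. The mean was 5.29 ± 0.067 (SD, n = 3) against 5.20 ± 0.094 (SD, n = 2), a difference of 0.090 (95% interval -0.22 to 0.40, limma adjusted p 0.94). The bounds correspond to ratios of 0.860 and 1.32. Its mean lies near the array medians, and the interval bounds the difference in array signal, not in the amount of RNA. Without control array 2 the difference was 0.023, and without control array 1 it was 0.16.

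Pcx, pyruvate carboxylase, makes the oxaloacetate that enters glyceroneogenesis. It read 7.04, 7.04 and 7.03 on exposed arrays and 7.04 and 7.01 on control arrays. The range over all 5 arrays was 0.034, and 0.333% of probe sets had a smaller one. The difference was 0.011 (95% interval -0.27 to 0.29, limma adjusted p 1.00). This interval uses limma's moderated spread, which draws on all probe sets, and the SD of the gene itself was 0.0032 on exposed and 0.024 on control arrays.

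Mpc1, a subunit of the carrier that brings pyruvate into the mitochondrion, was at 8.44, 8.54 and 8.46 on exposed arrays and at 8.20 and 8.53 on control arrays. Control array 1 was the lowest of the 5, and the 3 exposed arrays lay within 0.10 of each other. The mean was 8.48 ± 0.054 (SD, n = 3) against 8.37 ± 0.23 (SD, n = 2), a difference of 0.11 (95% interval -0.25 to 0.47, limma adjusted p 0.94). It was -0.056 without control array 1.

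**Figure D2:**
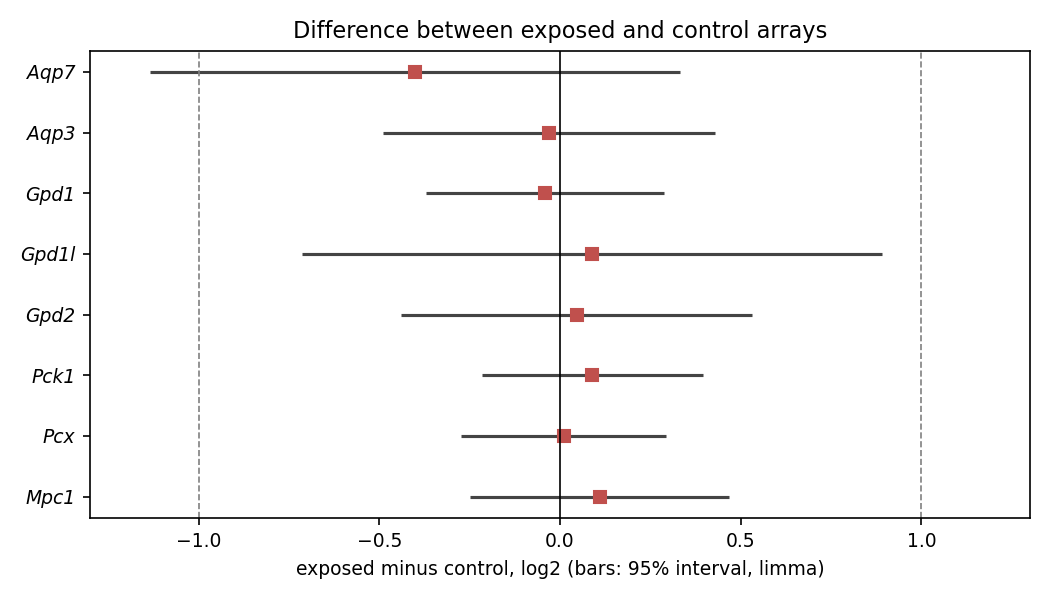
Exposed minus control difference on the log2 scale (squares, horizontal axis) with the 95% interval from limma (bars) for each of the 8 genes, and dashed lines at a 2-fold difference. Every interval includes 0, and that of Aqp7, from -1.14 to 0.33, crosses the lower dashed line.

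The genes differed in how far they spread over the 5 arrays. Gpd1l had a larger range over the 5 arrays than 94% of probe sets and Aqp7 a larger one than 91.9%. Pck1 exceeded 13.1% of probe sets, Gpd1 14.5% and Mpc1 26.7%. Among the exposed arrays alone the range was 1.05 for Gpd1l, 0.97 for Aqp7, 0.25 for Gpd1, 0.13 for Pck1 and 0.10 for Mpc1, whose lowest value was that of control array 1. The genes did not share an order of arrays. Exposed array 3 was the lowest array for Aqp7, Gpd1 and Gpd1l and the highest for Aqp3 and Gpd2. The mean deviation of the 8 genes from their own 5-array means was 0.030, 0.013 and -0.063 on exposed arrays 1 to 3 and -0.022 and 0.042 on control arrays 1 and 2, with control array 1 inside the range of the exposed arrays and control array 2 above it.

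**Figure D3:**
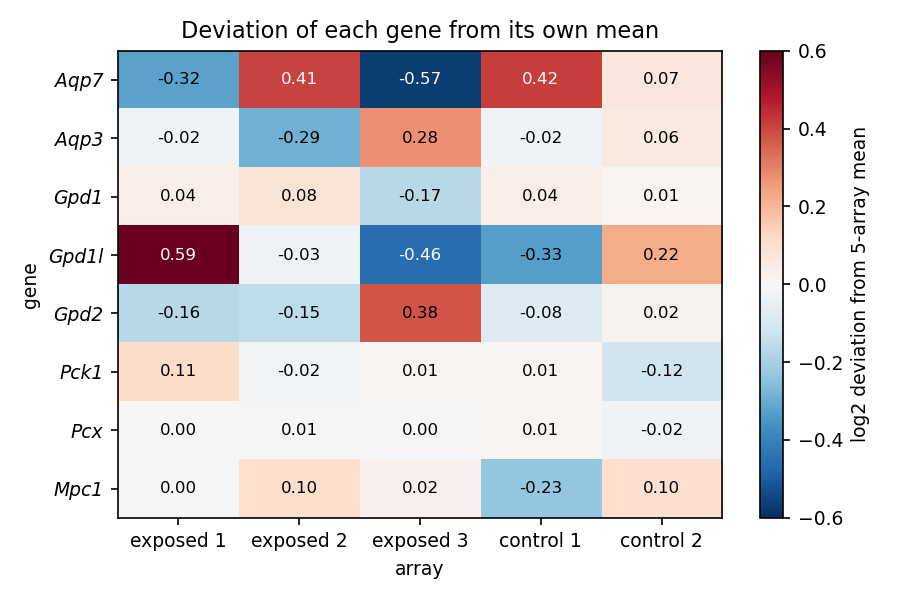
Deviation of each gene (rows) on each array (columns) from its own mean over the 5 arrays, in log2 units, printed in each cell and coloured from -0.6 (blue) to 0.6 (red). Exposed array 3 holds both the lowest value of Aqp7, Gpd1 and Gpd1l and the highest of Aqp3 and Gpd2.

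By the distance between array deviations, the genes nearest to Aqp7, the member with the widest difference, were Zfx, which encodes a zinc finger transcription factor, at 0.070, Hip1, which encodes an endocytic adaptor, at 0.10, and Prrg1, at 0.14. Zfx read 5.82, 6.53 and 5.54 on exposed arrays and 6.48 and 6.14 on control arrays. Over 5 arrays such likeness is a description of these arrays.

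Genes of 8 lists around the pathway were examined in the same fit, 111 of 119 genes being measured outside the 8 members. In 0 of them did the adjusted p fall under 0.05, 40 were higher and 71 lower in mean, and the median difference was -0.044. Of the 111, the groups did not overlap for 20, or 18%, close to the 17.3% of all probe sets. The exposed arrays lay above the controls for 6 of these genes and below them for 14, against the 8.5% and 8.84% of all probe sets given above. Examples below are the 2 widest differences of each list, given as values.

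In the list on supply of triose phosphate from glucose, most genes were lower in mean and none was called. The list held 13 measured genes, including the glucose transporters Slc2a1 and Slc2a4, and Gapdh, which acts after the triose phosphates. Of the 13, 12 were lower and 1 higher in mean, with a median of -0.11, and 4 were lower on every exposed array. Over all probe sets 50.1% were lower in mean and 8.84% lower on every exposed array. The 4 were Pfkfb3, Slc2a1 (-0.13), Pfkfb4 (-0.21) and Gapdh (-0.048), and all but Pfkfb3 were named after their values were seen. Pfkfb4 had exactly the same value, 5.77, on all 3 exposed arrays. Pfkp, a phosphofructokinase, read 9.80, 10.2 and 9.32 on exposed and 10.1 and 10.0 on control arrays, a difference of -0.28. Pfkfb3, which makes the activator of phosphofructokinase, read 6.59, 6.66 and 6.40 against 6.84 and 6.77, and each exposed array lay below both controls (-0.26, 95% interval -0.59 to 0.08). The list mean was 8.59, 8.69 and 8.48 on exposed arrays 1 to 3 and 8.69 and 8.71 on control arrays. Without exposed array 3 the count lower was 9 of 13.

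Lipolysis, which frees the glycerol, had 4 genes higher and 7 lower of 11 (median -0.036). Pnpla2 and Lipe, the first lipases of the cascade, differed by 0.077 and -0.067, and were chosen after their values were seen. Plin1, the droplet coat protein, differed by -0.25, with exposed array 3 at 9.08 where the other 4 arrays lay between 9.77 and 9.90. Mgll, which frees glycerol from monoglyceride in the last step, differed by -0.21 (95% interval -0.91 to 0.49). It read 4.32, 3.58 and 3.35 on exposed and 3.99 and 3.94 on control arrays, below the array medians.

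Use of glycerol 3-phosphate in triglyceride assembly was split, with 7 genes higher and 9 lower of 16 (median -0.0066). Gpat3, an endoplasmic reticulum enzyme that acylates glycerol 3-phosphate, read 7.14, 6.78 and 7.14 on exposed and 6.53 and 6.51 on control arrays. All 3 exposed arrays lay above both controls, at a difference of 0.50 (95% interval 0.11 to 0.89). Its limma adjusted p was 0.93 and its unadjusted p 0.020, so it missed the threshold. It was the 1 of 111 pathway genes with an unadjusted limma p under 0.05, which 3.49% of all probe sets had. Gpat2, a mitochondrial family member, differed by -0.59, with exposed values of 2.79, 2.12 and 3.36 against 3.33 and 3.37. Each of these values lies below the array medians.

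In the list on the fate of pyruvate, 6 of 17 genes were higher and 11 lower (median -0.044). Pdp2, a phosphatase that activates pyruvate dehydrogenase, differed by -0.42 (95% interval -0.94 to 0.11), and Pdk1, a kinase that inactivates it, by -0.36 (-0.85 to 0.14). Pdk1 was at 9.04, 9.19 and 8.60 on exposed and 9.41 and 9.19 on control arrays. Among the malate, citrate and aspartate shuttles 6 of 15 genes were higher and 9 lower (median -0.038). The mitochondrial carriers Slc25a11, which exchanges malate for oxoglutarate, and Slc25a12, which exports aspartate, were each lower on every exposed array. This held for 8.84% of all probe sets. Slc25a11 was at 7.95, 8.45 and 8.33 against 8.73 and 8.60, a difference of -0.42 (95% interval -0.86 to 0.019), and Slc25a12 differed by -0.41 (-0.92 to 0.093). For Slc25a12 exposed array 2, at 7.605, was level with control array 2, at 7.606.

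Other enzymes of glycerol and gluconeogenesis were 6 higher and 5 lower of 11 (median 0.12). Fbp2, the muscle fructose bisphosphatase, differed by 0.35, with all 5 arrays below the array medians, and Tkfc, which phosphorylates dihydroxyacetone, by 0.29. The count lower was 3 of 11 without control array 2 and 6 of 11 without control array 1. Pck2, the mitochondrial counterpart of Pck1, differed by -0.0019 (95% interval -0.41 to 0.40) and was named after its value was seen. Other aquaporins were 3 higher and 6 lower of 9 (median -0.18). Aqp9, the glycerol channel of liver, was at 2.59, 2.15 and 2.71 against 2.85 and 3.02, and Aqp4, a water channel of brain, at 2.65, 2.75 and 2.82 against 2.50 and 2.36. The groups did not overlap for either gene, and both read below the array medians.

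Factors known to act on Pck1 transcription were 7 higher and 12 lower of 19 (median -0.068). Nrip1, a nuclear receptor corepressor, read 5.17, 5.70 and 5.00 on exposed and 5.94 and 5.72 on control arrays, each exposed array lying below both controls (-0.54, 95% interval -1.10 to 0.019). Egr1, an immediate early transcription factor, differed by -0.38, with exposed array 1 at 7.82 and the other 4 arrays between 8.67 and 8.82. Pparg, which drives Pck1 in adipocytes, differed by 0.020 (95% interval -0.27 to 0.31).

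**Figure D4:**
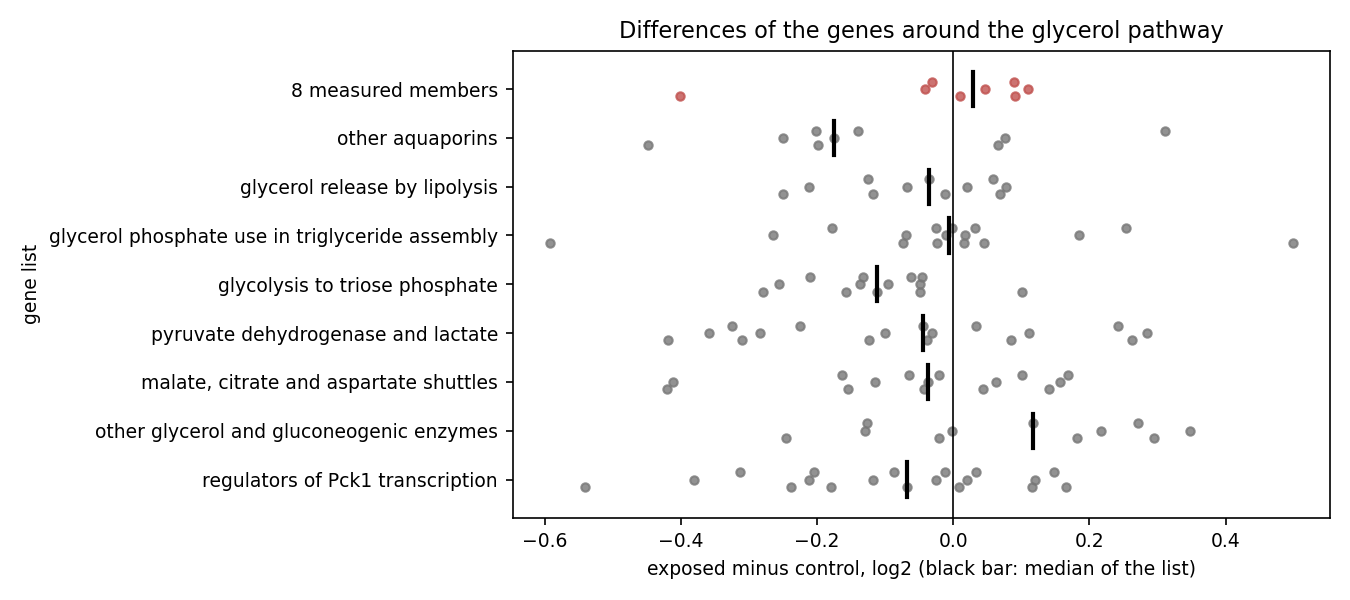
Exposed minus control difference on the log2 scale (horizontal axis) of each measured gene (points) in the glycerol and glyceroneogenesis set (red) and in 8 lists around it (grey), with the median of each list as a black bar. The glycolysis list lies mostly left of 0 with a median of -0.11, and Aqp7, at -0.40, lies below the other 7 members, which range from -0.042 to 0.11.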

How the data were processed

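RNA of 5 samples of 3T3-L1 adipocytes was hybridised to 5 Affymetrix Clariom S mouse arrays, at 50 ng of RNA per array. The deposited log2 values had been made by the authors with RMA using Partek, as the submitters' processing notes state. The version of each program is not given in the sources used here, nor is the build of the annotation. There were no detection calls in the table, values ran from 1.20 to 13.2, and the number of arrays limits precision.

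The comparison was fitted by lmFit and eBayes of limma 3.58.1 under R 4.3.3 (two-sided, group as sole term) over all 22206 probe sets with no filter, with Benjamini-Hochberg adjustment over the whole table. Intervals cover 95%; there were 3 residual and 3.17 prior degrees of freedom. The procedure was tested on simulated data. Where a gene has several probe sets (55 genes), the one with the highest mean stood for it.

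The members, and 13 lists with 152 of 165 genes measured (5 of them cell type markers), were chosen with earlier results of these data known. Named were all members, called genes or the 2 widest differences of each list, the adipocyte markers Adipoq, Fabp4 and Pparg, and the 3 genes nearest to the widest member; other named genes are said to be so. Widest differences of the marker lists were Retn (0.46), Plin1 (-0.25), Dlk1 (-0.28), Zfp423 (-0.21), Alb (-0.67), Apoa2 (0.23), C1qa (-0.51), Cd14 (-0.32), Cd79b (-0.37) and Mzb1 (-0.37). Of these, Alb, Apoa2, C1qa, Cd79b and Mzb1 read below the array medians on every array. Alb was at 4.62 on control array 1 and between 3.25 and 3.64 on the other arrays. Alternatives were a replicate block, no moderation, trend and robust moderation, array weights, a filter on dim probe sets, median centring and leaving out each array.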

Additional observations from a re-analysis of the deposited data

How the results depend on the processing

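No member was called by limma under any alternative listed for the processing, and no probe set was, except that 4 probe sets combined a difference of 2-fold or more with an unadjusted p under 0.05. Leaving out each array in turn was the choice that changed the picture most. The number of the 8 members higher in mean, 5 with all arrays, then ran from 2 (without control array 1) to 6, and the number without overlap between groups, 0 with all arrays, from 0 (without exposed array 1) to 3 (without control array 2). Fewer arrays separate more easily, and of all probe sets 30.1% and 45.1% had no overlap in these fits. Aqp7 and Pck1 kept their sign in all 11 fits, at -0.69 to -0.20 and 0.023 to 0.16. The other 6 members did not. Not all 11 fits could turn a sign. No moderation, trend and robust moderation and the filter on dim probe sets leave each difference as it was. The replicate block repeats the difference without exposed array 3. With 1 array left out Aqp3 ran from -0.18 to 0.11, Gpd1 from -0.089 to 0.033, Gpd1l from -0.19 to 0.37, Gpd2 from -0.13 to 0.14, Pcx from -0.0062 to 0.027 and Mpc1 from -0.056 to 0.28. Where 1 control was left, its spread was taken to be that of the exposed group. With a replicate block Gpd1 was 0.033 and Gpd2 -0.13; exposed array 3 has no partner there, so these equal the values without it. The deviations of same-numbered arrays from their group means had correlations of -0.014 and -0.032 over the probe sets. With 2 controls, the deviations of 1 are those of the other with the sign turned. Pairs with the other control therefore repeat these values with the opposite sign and are no separate comparison. The labels do not say that the replicate numbers, or the separate running numbers in the sample titles, pair the samples. With array weights Gpd2 was -0.00066, and with arrays centred on their medians Pcx was -0.0074. The cause of these turns was not tested. Averaging several probe sets of a member was not run because each had 1. The leave-one-out counts of the gene lists were chosen after seeing the data.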
